A study of Mus musculus with 15 samples.

Results

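UDP-glucuronosyltransferase (UGT), cytosolic sulfotransferase (SULT) and carboxylesterase (CES) genes were followed across 5 kinds of mouse liver. Members were genes whose symbol begins with Ugt1a, Ugt2a, Ugt2b, Ugt3a, Sult1 to Sult6 or Ces1 to Ces5 and whose mean over all libraries reached 0.5 CPM (counts of the gene per 1000000 gene counts of the library). Of 57 such symbols read here, 42 met that level, out of 24411 gene symbols in the files. They comprised 17 UGT genes (7 of Ugt1a, 1 of Ugt2a, 7 of Ugt2b and 2 of Ugt3a), 10 SULT genes and 15 CES genes. Sult2a7 (mean 0.503 CPM) and Ces2h (0.602 CPM) lay just inside the limit, and Ces2b (0.482 CPM) and Sult2a2 (0.479 CPM) just outside it. All 42 passed the low-count filter of the test and were tested.

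The series holds polyA RNA sequencing of 15 livers of male FVB/NJ mice, 3 in each of 5 groups. The triple model (CTNNB1_NFE2L2_MET) carried S45Y-CTNNB1, G31A-NFE2L2 and human MET together. The CTNNB1_MET model carried S45Y-CTNNB1 with human MET, the CTNNB1_NFE2L2 model S45Y-CTNNB1 with G31A-NFE2L2, and the NFE2L2_MET model G31A-NFE2L2 with human MET. Wild-type FVB liver (WT) carried none of these. S45Y alters a phosphorylation site that marks β-catenin for degradation, G31A lies in the segment of NRF2 (the product of NFE2L2) that KEAP1 binds, and MET is the receptor for hepatocyte growth factor. The labels give no age, vector, promoter, delivery route or time, and no statement that the livers came from different animals or litters, so p-values here measure the spread between these samples. They also do not say what part of a liver was tumour, and in bulk tissue fewer cells of a type cannot be told apart from less RNA per cell.

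UGT enzymes sit in the endoplasmic reticulum and join glucuronic acid from UDP-glucuronic acid to bilirubin, steroids, bile acids, phenols and drugs. SULT enzymes in the cytosol move sulfate from the donor PAPS to phenols, catecholamines, estrogens, hydroxysteroids and bile acids. CES enzymes in the lumen of the endoplasmic reticulum, and in mouse plasma, split esters and amides of drugs and of neutral lipids. Hepatocytes are a main site of all these families. Mouse Ugt1a proteins come from 1 locus on chromosome 1 in which each gene has its own first exon and shares the later exons with the others. Many Ugt2b, Ces1, Ces2 and Ces3 genes lie in tandem clusters of close copies.

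Sequences around the gene starts are shown here for pairs of clustered copies with different expression and for genes with an HNF1 half-site. These genes were chosen with their values known. Windows of 300 bases (250 before to 50 after the RefSeq start, GRCm38.p6) were matched by symbol for 34 of 42 members, in 37 windows. The first pair, from 1 cluster on chromosome 5, is Ugt2b38 (chr5:87424154-87424453, minus strand) and Ugt2b5 (chr5:87140291-87140590, minus strand), which were identical at 261 of 290 aligned bases (90%). Capitals mark the 39 bases of each that were not matched in the other copy.
Ugt2b38: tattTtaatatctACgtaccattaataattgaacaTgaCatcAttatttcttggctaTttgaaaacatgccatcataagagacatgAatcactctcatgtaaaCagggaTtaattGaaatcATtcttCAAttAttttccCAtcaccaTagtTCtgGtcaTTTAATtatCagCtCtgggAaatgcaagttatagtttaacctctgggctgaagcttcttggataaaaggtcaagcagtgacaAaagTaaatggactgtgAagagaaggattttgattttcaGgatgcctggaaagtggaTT
Ugt2b5: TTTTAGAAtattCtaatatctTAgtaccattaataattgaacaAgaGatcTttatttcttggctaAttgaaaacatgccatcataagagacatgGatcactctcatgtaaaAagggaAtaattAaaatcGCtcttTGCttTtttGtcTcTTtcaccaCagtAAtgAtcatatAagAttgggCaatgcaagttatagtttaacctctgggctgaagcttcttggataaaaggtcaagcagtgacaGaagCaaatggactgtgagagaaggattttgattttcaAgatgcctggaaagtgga
From the Ces2 cluster on chromosome 8, Ces2a (chr8:104733753-104734052, plus strand) and Ces2c (chr8:104846818-104847117, plus strand) were identical at 206 of 277 aligned bases (74.4%), with unmatched bases again in capitals. Ugt1a5 and Ugt2b38, on chromosomes 1 and 5, were identical at 179 of 239 bases (74.9%) in the same kind of alignment. The Ces2 value therefore does not set that pair apart from genes of different loci.
Ces2a: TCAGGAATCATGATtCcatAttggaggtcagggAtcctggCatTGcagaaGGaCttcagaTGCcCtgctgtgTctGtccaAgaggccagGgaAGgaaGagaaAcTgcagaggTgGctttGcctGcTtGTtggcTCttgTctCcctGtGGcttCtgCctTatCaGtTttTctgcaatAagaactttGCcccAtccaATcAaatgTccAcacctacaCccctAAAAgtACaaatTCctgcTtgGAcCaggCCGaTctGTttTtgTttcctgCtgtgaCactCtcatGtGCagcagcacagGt
Ces2c: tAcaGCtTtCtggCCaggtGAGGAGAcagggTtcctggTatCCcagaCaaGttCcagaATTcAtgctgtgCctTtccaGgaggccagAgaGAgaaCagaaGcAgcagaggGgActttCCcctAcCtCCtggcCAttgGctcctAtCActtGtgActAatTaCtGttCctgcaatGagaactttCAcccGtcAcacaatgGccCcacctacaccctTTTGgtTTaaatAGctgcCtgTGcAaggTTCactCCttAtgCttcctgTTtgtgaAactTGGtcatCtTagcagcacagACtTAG
In the Ugt1a locus, Ugt1a9 (chr1:88070529-88070828, plus strand) and Ugt1a10 (chr1:88055161-88055460, plus strand) were identical at 232 of 274 aligned bases (84.7%). Sult2a6 (chr7:14254821-14255120, minus strand) belongs to the subfamily that sulfates bile acids and hydroxysteroids. Capitals in these 3 mark GTTAAT or its reverse complement, a half-site of the liver factor HNF1.
Ugt1a9: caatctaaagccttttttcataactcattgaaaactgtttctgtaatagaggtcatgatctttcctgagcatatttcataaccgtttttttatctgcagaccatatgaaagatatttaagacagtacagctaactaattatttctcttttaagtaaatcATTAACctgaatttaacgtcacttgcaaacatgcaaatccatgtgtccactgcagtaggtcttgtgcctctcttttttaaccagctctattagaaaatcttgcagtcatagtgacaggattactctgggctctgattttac
Ugt1a10: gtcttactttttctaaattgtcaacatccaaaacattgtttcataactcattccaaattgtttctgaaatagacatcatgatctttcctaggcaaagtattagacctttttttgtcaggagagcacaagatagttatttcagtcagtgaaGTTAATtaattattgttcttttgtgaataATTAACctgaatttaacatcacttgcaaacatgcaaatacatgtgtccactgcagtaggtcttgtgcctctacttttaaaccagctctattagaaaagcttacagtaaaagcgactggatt
Sult2a6: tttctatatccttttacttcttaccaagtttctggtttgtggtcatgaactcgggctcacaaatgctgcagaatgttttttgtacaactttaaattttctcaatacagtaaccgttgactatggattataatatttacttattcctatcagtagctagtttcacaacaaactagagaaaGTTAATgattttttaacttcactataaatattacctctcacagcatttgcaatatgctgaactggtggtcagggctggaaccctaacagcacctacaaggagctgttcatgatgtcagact

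GTTAAT, searched on both strands, was in the windows of 10 of 34 members (29.4%), against 8.24% of 27025 genes with such a window. It stood at position -91 in Ugt1a9, at -100 and -71 in Ugt1a10, at -71 in Sult2a6, at -41 in Ugt1a1, at -50 in Ugt1a6a and at -56 in Ces3b, counted from the gene start. The letters TGACNNNGC, the core of the antioxidant response element to which NRF2 binds, were in 0 of 34 members, against 14.0% of all genes. The dioxin response core GCGTG was in 4 of 34 members (11.8%), against 35.2% of all genes, and the TCF/LEF core ATCAAAG in 1 of 34 (2.94%), against 4.29%. The 4 patterns were each counted without regard to overlap with another. They describe these windows alone, and enhancers were not searched.

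Gene counts came to 14084343 to 20702618 per library. The 7 NRF2 target genes used as a check summed to 5953 to 7020.4 CPM in triple livers, 614 to 691 CPM in CTNNB1_MET livers, 5395 to 6079.7 CPM in CTNNB1_NFE2L2 livers and 2151 to 3686 CPM in NFE2L2_MET livers, against 682 to 859 CPM in WT livers. The 7 β-catenin targets summed to 2887 to 3448 CPM in triple, 1763 to 2222 CPM in CTNNB1_MET, 4064 to 4528 CPM in CTNNB1_NFE2L2 and 293 to 379.7 CPM in NFE2L2_MET livers, against 568 to 652 CPM in WT livers. All 6 hepatocyte markers read here were abundant, and their sum was 68039 to 74637 CPM in triple, 129340 to 137620 CPM in CTNNB1_MET, 29056 to 37461 CPM in CTNNB1_NFE2L2 and 137850 to 181630 CPM in NFE2L2_MET livers, against 76403 to 102070 CPM in WT livers. Their median log2 fold change against WT was -0.80 in triple, -0.26 in CTNNB1_MET, -1.33 in CTNNB1_NFE2L2 and 0.24 in NFE2L2_MET livers. The 6 macrophage markers summed to 297 to 442 CPM in triple, 198 to 252 CPM in CTNNB1_MET, 309 to 439.7 CPM in CTNNB1_NFE2L2 and 273 to 349.8 CPM in NFE2L2_MET livers, against 162 to 183 CPM in WT livers. The 6 cholangiocyte markers summed to 80.3 to 126 CPM in triple, 56.8 to 62.6 CPM in CTNNB1_MET, 40.2 to 62.5 CPM in CTNNB1_NFE2L2 and 175 to 271 CPM in NFE2L2_MET livers, against 59.5 to 146 CPM in WT livers. These genes had a median log2 fold change against WT of 0.74 in triple, 0.39 in CTNNB1_MET, -0.93 in CTNNB1_NFE2L2 and 0.07 in NFE2L2_MET livers. The 5 markers of stellate cells and fibroblasts summed to 374 to 490.1 CPM in triple, 347 to 432 CPM in CTNNB1_MET, 95.9 to 142 CPM in CTNNB1_NFE2L2 and 288 to 361 CPM in NFE2L2_MET livers, against 212 to 454 CPM in WT livers. Gene by gene, their median log2 fold change against WT was -0.88 in triple, -0.90 in CTNNB1_MET, -1.70 in CTNNB1_NFE2L2 and -0.52 in NFE2L2_MET livers. The 5 endothelial markers summed to 128 to 149.9 CPM in triple, 141 to 187 CPM in CTNNB1_MET, 142 to 163 CPM in CTNNB1_NFE2L2 and 193 to 206 CPM in NFE2L2_MET livers, against 139 to 179.5 CPM in WT livers, and the 5 lymphocyte markers to 5.67 to 7.68 CPM in triple, 4.39 to 5.88 CPM in CTNNB1_MET, 2.95 to 4.98 CPM in CTNNB1_NFE2L2 and 1.83 to 2.98 CPM in NFE2L2_MET livers, against 2.37 to 2.88 CPM in WT livers. The 5 enterocyte markers summed to 265 to 698 CPM in triple, 960 to 1198 CPM in CTNNB1_MET, 165 to 266 CPM in CTNNB1_NFE2L2 and 1829.6 to 2782 CPM in NFE2L2_MET livers, against 316 to 791 CPM in WT livers. Most of that sum was Apoa4, an apolipoprotein gene that mouse liver also expresses (1772, 1909.5 and 2743 CPM in NFE2L2_MET livers and 259, 725 and 399.6 CPM in WT livers), and the intestinal enzymes Lct and Sis reached at most 0.401 and 0.676 CPM. The 4 acinar markers summed to 86.4 to 121.5 CPM in triple, 103.7 to 118.6 CPM in CTNNB1_MET, 68.5 to 94.9 CPM in CTNNB1_NFE2L2 and 60.6 to 73.7 CPM in NFE2L2_MET livers, against 57.4 to 77.5 CPM in WT livers. Nearly all of that sum was Cela1, and Cpb1 and Amy2a5 of pancreas had 0 CPM in every library. The 4 adipocyte markers summed to 5.84 to 9.32 CPM in triple, 5.88 to 8.72 CPM in CTNNB1_MET, 11.9 to 16.6 CPM in CTNNB1_NFE2L2 and 6.93 to 7.90 CPM in NFE2L2_MET livers, against 5.52 to 8.48 CPM in WT livers. The part of these shifts in the results below was not tested. WT replicate 2 stood apart from the other WT libraries and was the lowest WT library for 27 of 42 members, and triple replicate 1 was the lowest triple library for 32.

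Each transgene was read as added to a pair, as triple against the double model that lacks it, and each model was read against WT. These comparisons share libraries (the triple livers in the first 3, the WT livers in the other 4), so they are given side by side. A member was called at an adjusted p under 0.05 over 14098 tested genes. With NFE2L2 added, 9 members were higher and 21 lower of 42 (21.4% and 50%), where 18.4% of all tested genes were called higher and 15.4% lower. With CTNNB1 added, 5 were higher and 16 lower (11.9% and 38.1%), against 16.4% and 14.3% of all genes. With MET added, 4 were higher and 10 lower (9.52% and 23.8%), against 13.1% and 11.8% of all genes. The median log2 fold change over the members was -0.80 with NFE2L2 added, -0.58 with CTNNB1 added and -0.34 with MET added, where the median over all genes lay within 0.03 of 0. All 7 NRF2 check genes were also called higher with CTNNB1 added (median 1.36), where 16.4% of all genes were. All 7 β-catenin check genes were called higher with NFE2L2 added (median 0.77), where 18.4% of all genes were. Neither comparison therefore changed the targets of 1 transgene alone.

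Against WT, 13 members were higher and 17 lower in triple livers (31% and 40.5%, where 26.5% and 23.4% of all genes were called). In CTNNB1_MET livers 8 were higher and 6 lower (19.0% and 14.3%, where all genes gave 11.0% and 6.22%). In CTNNB1_NFE2L2 livers 15 were higher and 15 lower (35.7% each way, where all genes gave 24.5% and 24.2%). In NFE2L2_MET livers 11 were higher and 7 lower (26.2% and 16.7%, where all genes gave 13.5% and 9.89%). Total-count scaling, without the TMM factors, moved the median of all genes from 0.01 to 0.38 with CTNNB1 added, and the members called there became 11 higher and 9 lower. The lower counts in 2 doubles rested on single libraries. They became 1 in CTNNB1_MET livers without CTNNB1_MET replicate 1 and 3 without WT replicate 1 or CTNNB1_MET replicate 2. In NFE2L2_MET livers they became 2 without NFE2L2_MET replicate 2, 3 without NFE2L2_MET replicate 3 and 4 without WT replicate 1 or WT replicate 3. With MET added, the 10 lower calls became 3 without CTNNB1_NFE2L2 replicate 2, 4 without triple replicate 1 or 2 and 6 without CTNNB1_NFE2L2 replicate 3, and with CTNNB1 added the 16 became 10 without triple replicate 2.

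**Figure D1:**
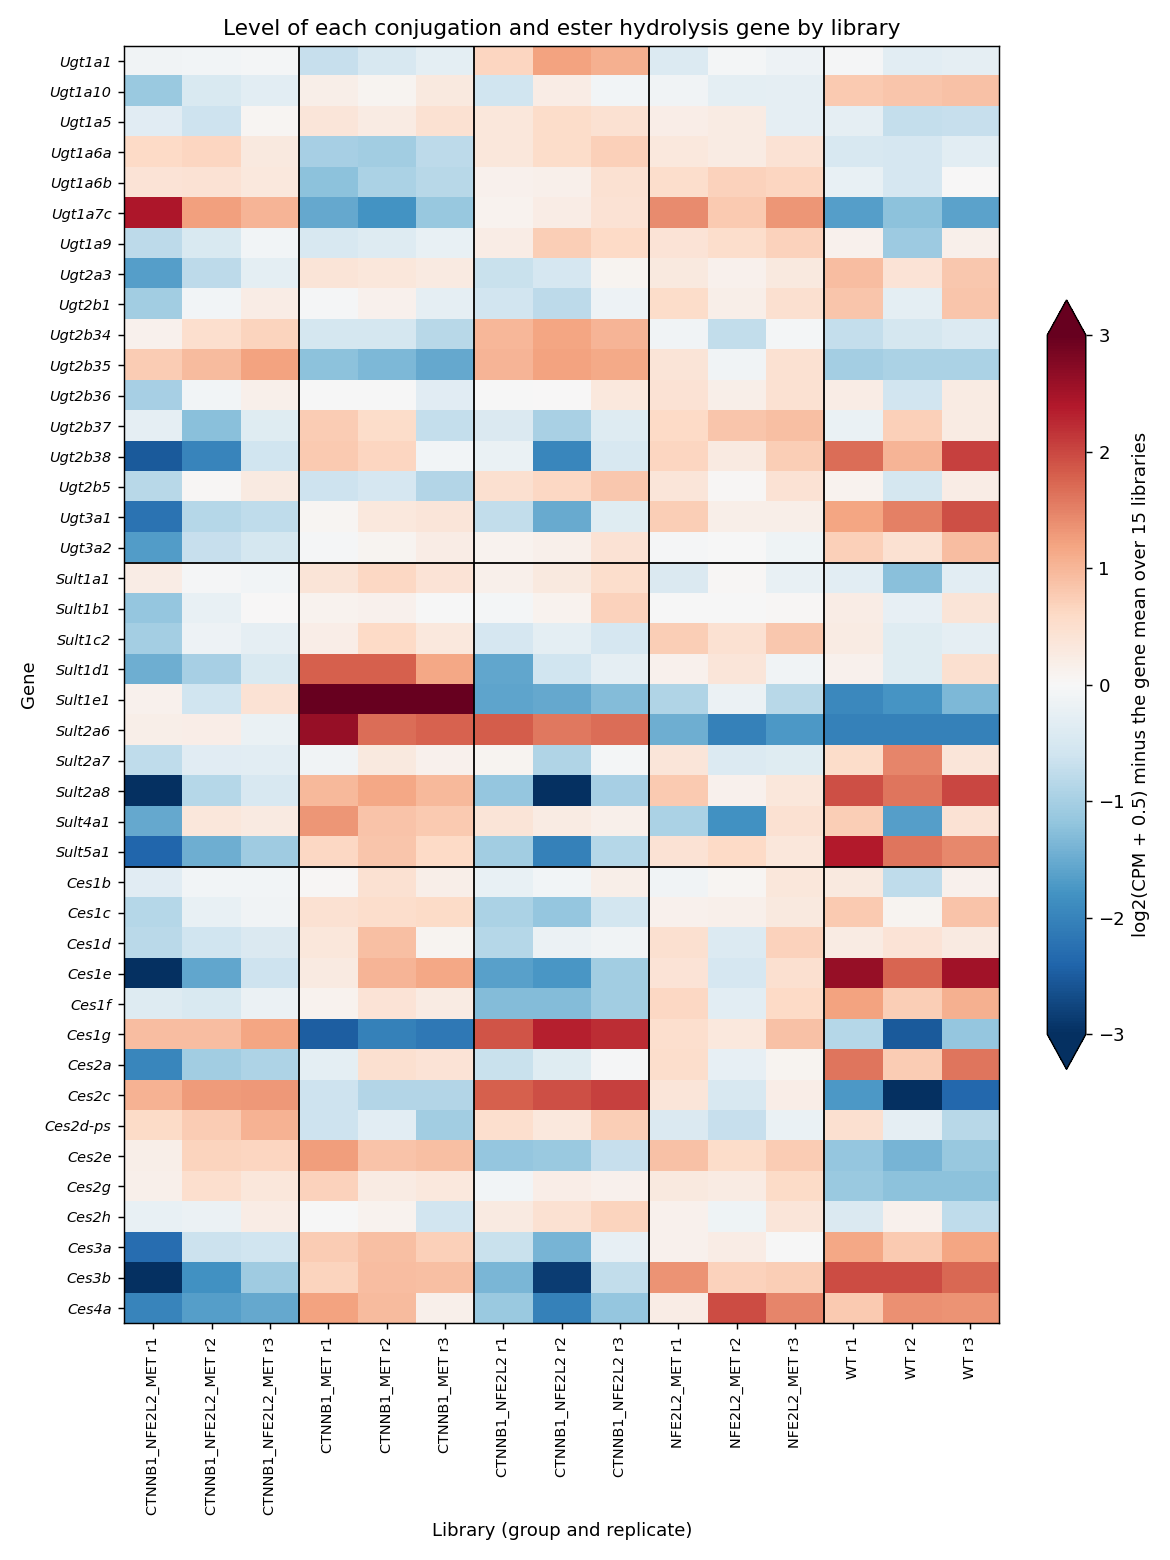
Each row is 1 of the 42 genes and each column 1 of the 15 libraries, and colour gives log2(CPM + 0.5) minus the gene's mean over all libraries. Ces1e, Ces2a, Ces3b and Sult2a8 are highest in the 3 WT columns at the right, whereas Ugt1a7c, Ugt2b35, Ces1g and Ces2c are highest in models that carry NFE2L2.

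In the Ugt1a locus, Ugt1a7c, Ugt1a6a and Ugt1a6b rose in every model that carried NFE2L2. Ugt1a7c had 14.1, 5.87 and 5.01 CPM in triple livers, 0.429, 0.283 and 0.731 CPM in CTNNB1_MET livers, 2.42, 2.67 and 3.17 CPM in CTNNB1_NFE2L2 livers and 6.72, 4.19 and 6.24 CPM in NFE2L2_MET livers, against 0.360, 0.653 and 0.385 CPM in WT livers. Its levels in the 3 NFE2L2 models did not overlap those of the other 2 groups. It rose with NFE2L2 added (log2 fold change 4.05 ± 0.44, adjusted p = 9.58e-06) and with MET added (1.60 ± 0.35, adjusted p = 0.00446), and it rose against WT, with log2 fold changes of 4.12 ± 0.45 in triple, 2.52 ± 0.47 in CTNNB1_NFE2L2 and 3.58 ± 0.46 in NFE2L2_MET livers. Triple replicate 1 was its highest library, and the change moved to 3.43 with NFE2L2 added, 0.98 with MET added and 3.51 against WT without that library.

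Ugt1a6a and Ugt1a6b, which encode the enzymes for small planar phenols, moved like each other and in opposite directions between models. Ugt1a6a had 34.8, 35.7 and 27.7 CPM in triple livers, 11.1, 10.7 and 13.0 CPM in CTNNB1_MET livers, 28.8, 33.3 and 37.6 CPM in CTNNB1_NFE2L2 livers and 28.2, 26.8 and 30.8 CPM in NFE2L2_MET livers, against 16.0, 16.0 and 18.2 CPM in WT livers. Ugt1a6b had 27.8, 28.3 and 26.1 CPM in triple livers, 8.64, 10.6 and 11.5 CPM in CTNNB1_MET livers, 23.0, 23.2 and 28.7 CPM in CTNNB1_NFE2L2 livers and 30.5, 33.9 and 32.9 CPM in NFE2L2_MET livers, against 17.8, 14.7 and 20.9 CPM in WT livers. For both genes the CTNNB1_MET livers lay below the WT livers and the 3 NFE2L2 models above them. With NFE2L2 added, log2 fold changes were 1.49 ± 0.13 (adjusted p = 1.04e-06) for Ugt1a6a and 1.42 ± 0.14 (adjusted p = 3.44e-06) for Ugt1a6b. Ugt1a6a also rose against WT in the 3 NFE2L2 models, with log2 fold changes of 0.97 ± 0.13 in triple, 0.99 ± 0.13 in CTNNB1_NFE2L2 and 0.78 ± 0.13 in NFE2L2_MET livers. Ugt1a6b rose against WT in triple (0.62 ± 0.14), CTNNB1_NFE2L2 (0.49 ± 0.14) and NFE2L2_MET livers (0.87 ± 0.14). Against WT, Ugt1a6a fell in CTNNB1_MET livers (-0.52 ± 0.13, adjusted p = 0.0132), a call that ended without CTNNB1_MET replicate 1 or 2 (-0.47 to -0.49, adjusted p up to 0.0589), and Ugt1a6b also fell there (-0.79 ± 0.14, adjusted p = 0.00133). Of all 50-base stretches in Ugt1a6b transcripts, 79.8% also occur in another gene, mostly Ugt1a6a. Reads that map to several genes were not counted, so the counts of both copies rest on the stretches that differ and are less certain.

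Ugt1a1, the bilirubin-conjugating enzyme, had 69.5, 70.5 and 71.8 CPM in triple livers, 46.4, 53.8 and 60.9 CPM in CTNNB1_MET livers, 116.7, 173 and 156 CPM in CTNNB1_NFE2L2 livers and 56.0, 71.5 and 67.4 CPM in NFE2L2_MET livers, against 73.3, 59.4 and 62.3 CPM in WT livers. The CTNNB1_NFE2L2 livers stood above all the other livers (log2 fold change 1.19 ± 0.14, adjusted p = 8.19e-06 against WT), and triple livers were lower than they were (-1.07 ± 0.14 (adjusted p = 0.000131) with MET added). The call with NFE2L2 added, 0.39 ± 0.14 (adjusted p = 0.0448), ended without triple replicate 1, 2 or 3, or CTNNB1_MET replicate 1 or 2 (0.30 to 0.41, adjusted p up to 0.168). Ugt1a9, whose human counterpart conjugates phenols and drugs such as propofol, rose in CTNNB1_NFE2L2 livers against WT (0.71 ± 0.27, adjusted p = 0.0422). That call ended without CTNNB1_NFE2L2 replicate 2 or 3, or WT replicate 2 (0.42 to 0.68, adjusted p up to 0.131). Ugt1a9 averaged 126 ± 30.7 CPM in triple, 131 ± 12.3 CPM in CTNNB1_MET, 244 ± 42.7 CPM in CTNNB1_NFE2L2 and 245 ± 25.6 CPM in NFE2L2_MET livers. WT livers averaged 149 ± 61.1 CPM (SD, n = 3). The NFE2L2_MET libraries also lay above all WT libraries but were not called. Its neighbour Ugt1a10, at 0.154, 0.529 and 0.632 CPM in triple, 0.435, 1.15 and 0.834 CPM in CTNNB1_NFE2L2 and 0.825, 0.665 and 0.687 CPM in NFE2L2_MET livers against 1.94, 2.02 and 2.12 CPM in WT livers, fell in these 3 models, with log2 fold changes of -2.18 ± 0.42 in triple, -1.33 ± 0.39 in CTNNB1_NFE2L2 and -1.47 ± 0.40 in NFE2L2_MET livers. The pair had calls of opposite sign in CTNNB1_NFE2L2 livers, and 57.3% of the 50-base stretches of Ugt1a10 also occur in Ugt1a9. Ugt1a10 calls ended without CTNNB1_NFE2L2 replicate 1 (-1.02, adjusted p = 0.0582) in CTNNB1_NFE2L2 livers and without NFE2L2_MET replicate 2 or 3 (-1.41 to -1.43, adjusted p up to 0.0569) in NFE2L2_MET livers. Ugt1a9 was lower with CTNNB1 added (-0.96 ± 0.27) and with MET added (-0.95 ± 0.27), calls that ended without triple replicate 1 or 2, or NFE2L2_MET replicate 3 (-0.80 to -0.93, adjusted p up to 0.0745) for CTNNB1 and without triple replicate 1 or 2, or CTNNB1_NFE2L2 replicate 2 or 3 (-0.80 to -0.93, adjusted p up to 0.0902) for MET. Ugt1a10 was also lower with NFE2L2 added (-1.33 ± 0.43), a call that ended without triple replicate 1, or CTNNB1_MET replicate 1 or 3 (-0.94 to -1.34, adjusted p up to 0.1).

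Ugt1a5 had 3.38, 2.69 and 4.62 CPM in triple livers, 5.88, 5.31 and 6.26 CPM in CTNNB1_MET livers, 5.75, 6.69 and 6.28 CPM in CTNNB1_NFE2L2 livers and 5.13, 5.39 and 3.61 CPM in NFE2L2_MET livers, against 3.60, 2.49 and 2.57 CPM in WT livers. CTNNB1_MET, CTNNB1_NFE2L2 and NFE2L2_MET libraries lay above WT, and triple and WT overlapped. It rose against WT in CTNNB1_MET livers (1.02 ± 0.23, adjusted p = 0.00617) and in CTNNB1_NFE2L2 livers (1.12 ± 0.22, adjusted p = 0.00078). In NFE2L2_MET livers (0.71 ± 0.23) its call ended without NFE2L2_MET replicate 1 or 2, or WT replicate 2 or 3 (0.60 to 0.64, adjusted p up to 0.116). With NFE2L2 added (-0.71 ± 0.22) its call ended without triple replicate 1 or 2, or CTNNB1_MET replicate 3 (-0.54 to -0.67, adjusted p up to 0.0927), and with MET added (-0.81 ± 0.22) without triple replicate 2, or CTNNB1_NFE2L2 replicate 2 (-0.64 to -0.75, adjusted p up to 0.0603). Reads in the shared Ugt1a exons belong to several genes and were not assigned, so Ugt1a counts reflect exon stretches that no other gene shares. In GENCODE M21 these come to 222 bases for Ugt1a6a, 1913 for Ugt1a7c and 879 to 938 for the other Ugt1a members. The Ugt1a7c gene ends at 88220002, past the others, which end by 88219004, so its count may not be limited to its first exon.

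Among the Ugt2b genes, Ugt2b34 and Ugt2b35 rose where NFE2L2 was present with CTNNB1, whereas Ugt2b38 fell. Ugt2b35 had 614, 702 and 831 CPM in triple livers, 154, 142 and 123.9 CPM in CTNNB1_MET livers, 731, 835 and 789.6 CPM in CTNNB1_NFE2L2 livers and 474, 337 and 497 CPM in NFE2L2_MET livers, against 178, 187 and 186 CPM in WT livers. The triple and CTNNB1_NFE2L2 livers lay above the NFE2L2_MET livers, and all 3 lay above WT. It rose with NFE2L2 added (log2 fold change 2.35 ± 0.16, adjusted p = 6.4e-08) and with CTNNB1 added (0.71 ± 0.15, adjusted p = 0.00219). Against WT it rose in triple (1.96 ± 0.16), CTNNB1_NFE2L2 (2.10 ± 0.16) and NFE2L2_MET livers (1.25 ± 0.15). Ugt2b34 had 712, 932 and 1035 CPM in triple livers, 451, 452 and 366 CPM in CTNNB1_MET livers, 1299, 1489.9 and 1339 CPM in CTNNB1_NFE2L2 livers and 608, 393 and 626 CPM in NFE2L2_MET livers, against 397, 452 and 491 CPM in WT livers. The CTNNB1_NFE2L2 livers were highest, and triple livers lay above the other 3 groups. It rose against WT in triple (1.00 ± 0.18) and CTNNB1_NFE2L2 livers (1.62 ± 0.18). It rose with NFE2L2 added (1.08 ± 0.18, adjusted p = 0.00036) and with CTNNB1 added (0.72 ± 0.18, adjusted p = 0.00699), and it was lower with MET added (-0.62 ± 0.18, adjusted p = 0.0197). That last call ended without triple replicate 1, or CTNNB1_NFE2L2 replicate 2 (-0.48 to -0.56, adjusted p up to 0.0896).

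Ugt2b5 and Ugt2b38, the copies printed above, differed in level and in response. Per kilobase of exon, Ugt2b5 averaged 446 ± 158 CPM in triple livers and 467 ± 119.2 CPM in WT livers (SD, n = 3), and Ugt2b38 averaged 0.964 ± 0.891 CPM in triple livers and 10.3 ± 3.58 CPM in WT livers. Ugt2b38 had 0.614, 1.11 and 3.75 CPM in triple livers, 10.4, 9.50 and 5.48 CPM in CTNNB1_MET livers, 5.07, 1.15 and 4.06 CPM in CTNNB1_NFE2L2 livers and 9.49, 7.19 and 10.2 CPM in NFE2L2_MET livers, against 19.8, 12.5 and 26.0 CPM in WT livers. Every library of every model lay below every WT library, though CTNNB1_MET and NFE2L2_MET livers were not called. It fell, with log2 fold changes of -3.40 ± 0.59 (adjusted p = 0.000432) in triple and -2.49 ± 0.55 (adjusted p = 0.00263) in CTNNB1_NFE2L2 livers against WT. It was also lower with NFE2L2 added (-2.20 ± 0.59) and with CTNNB1 added (-2.29 ± 0.59), calls that ended without triple replicate 1 or 2 (-1.79 to -1.94, adjusted p up to 0.0543) for NFE2L2 and without triple replicate 2 (-2.03, adjusted p = 0.0503) for CTNNB1. Triple replicate 3 was its highest triple library, and without it the changes were -3.27 with NFE2L2 added, -3.36 with CTNNB1 added and -4.47 against WT. Ugt2b5 had 499.7, 917 and 1068 CPM in triple livers, 579, 632 and 482 CPM in CTNNB1_MET livers, 1238, 1378 and 1571 CPM in CTNNB1_NFE2L2 livers and 1142, 916 and 1208 CPM in NFE2L2_MET livers, against 953, 617 and 1034 CPM in WT livers. The CTNNB1_NFE2L2 libraries lay above WT, and triple and WT overlapped. Of its calls, the rise in CTNNB1_NFE2L2 livers against WT (0.69 ± 0.25) ended without CTNNB1_NFE2L2 replicate 2 or 3, or WT replicate 2 (0.50 to 0.69, adjusted p up to 0.117), and the lower level with MET added (-0.75 ± 0.25) ended without triple replicate 1 or 2, or CTNNB1_NFE2L2 replicate 2 or 3 (-0.49 to -0.83, adjusted p up to 0.124). Ugt2b38 and Ugt2b5 share 34.1% of the 50-base stretches of Ugt2b38, so their counts are less certain than those of Ugt2b35, which shares 0.303% with any gene.

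The other abundant Ugt2b genes moved less. Ugt2b36 had 312, 594 and 697 CPM in triple livers, 622, 626 and 492 CPM in CTNNB1_MET livers, 619, 628 and 782 CPM in CTNNB1_NFE2L2 livers and 849.7, 711 and 862 CPM in NFE2L2_MET livers, against 734, 418 and 742 CPM in WT livers, and no comparison called it. Ugt2b1, whose rat counterpart conjugates steroids and morphine, had 275, 535 and 662 CPM in triple livers, 555, 617 and 471 CPM in CTNNB1_MET livers, 381, 330.4 and 507 CPM in CTNNB1_NFE2L2 livers and 823, 640.1 and 785 CPM in NFE2L2_MET livers, against 1010, 464 and 1012 CPM in WT livers. WT replicate 2 lay below the other WT libraries for both genes, and the groups overlapped. The single call of Ugt2b1, in CTNNB1_NFE2L2 livers against WT (-1.03 ± 0.32, adjusted p = 0.0169), ended without CTNNB1_NFE2L2 replicate 1 or 2, or WT replicate 1 or 3 (-0.86 to -0.98, adjusted p up to 0.0683). Ugt2b37, at most 93 counts in a library, was lower with CTNNB1 added (-1.59 ± 0.42, adjusted p = 0.0103) and had no other call. Ugt2a3, whose human counterpart conjugates bile acids, fell in triple livers (-1.54 ± 0.28, adjusted p = 0.00042) and in CTNNB1_NFE2L2 livers (-1.06 ± 0.27, adjusted p = 0.00574) against WT, and with NFE2L2 added (-1.15 ± 0.27, adjusted p = 0.00566) and CTNNB1 added (-1.05 ± 0.27, adjusted p = 0.0102).

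Both Ugt3a genes fell in triple and NFE2L2_MET livers against WT. In humans, UGT3A1 uses UDP-N-acetylglucosamine and UGT3A2 uses UDP-glucose or UDP-xylose in place of UDP-glucuronic acid. Ugt3a1 had 5.84, 15.6 and 16.9 CPM in triple livers, 29.9, 35.9 and 37.3 CPM in CTNNB1_MET livers, 17.2, 9.88 and 22.3 CPM in CTNNB1_NFE2L2 livers and 48.7, 32.5 and 32.8 CPM in NFE2L2_MET livers, against 66.2, 83.5 and 111.1 CPM in WT livers. Every library of every model lay below every WT library. It fell against WT, with log2 fold changes of -2.76 ± 0.38 in triple, -1.34 ± 0.36 in CTNNB1_MET, -2.40 ± 0.37 in CTNNB1_NFE2L2 and -1.19 ± 0.36 in NFE2L2_MET livers. Its calls ended without CTNNB1_MET replicate 1, 2 or 3, or WT replicate 3 (-1.12 to -1.40, adjusted p up to 0.0947) in CTNNB1_MET livers and without NFE2L2_MET replicate 2 or 3, or WT replicate 2 or 3 (-0.98 to -1.23, adjusted p up to 0.104) in NFE2L2_MET livers. It also fell with NFE2L2 added (-1.42 ± 0.37, adjusted p = 0.011) and with CTNNB1 added (-1.57 ± 0.37, adjusted p = 0.00713). Ugt3a2 fell in triple livers against WT (-1.60 ± 0.22, adjusted p = 3.72e-05) and with NFE2L2 (-0.98 ± 0.22, adjusted p = 0.00324), CTNNB1 (-0.83 ± 0.22, adjusted p = 0.00977) or MET added (-1.12 ± 0.22, adjusted p = 0.00219). The CTNNB1 call ended when only the libraries of that contrast were fitted (-0.85, adjusted p = 0.0608) and under total-count scaling (-0.47, adjusted p = 0.0794). Its call in NFE2L2_MET livers (-0.77 ± 0.22) ended without NFE2L2_MET replicate 1 or 3, or WT replicate 1 or 3 (-0.65 to -0.78, adjusted p up to 0.0701). The summed level of both genes was 105.8 ± 40.5 CPM in triple, 218 ± 20.0 CPM in CTNNB1_MET, 219 ± 30.3 CPM in CTNNB1_NFE2L2 and 203 ± 13.4 CPM in NFE2L2_MET livers, against 368 ± 60.0 CPM in WT livers (SD, n = 3).

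**Figure D2:**
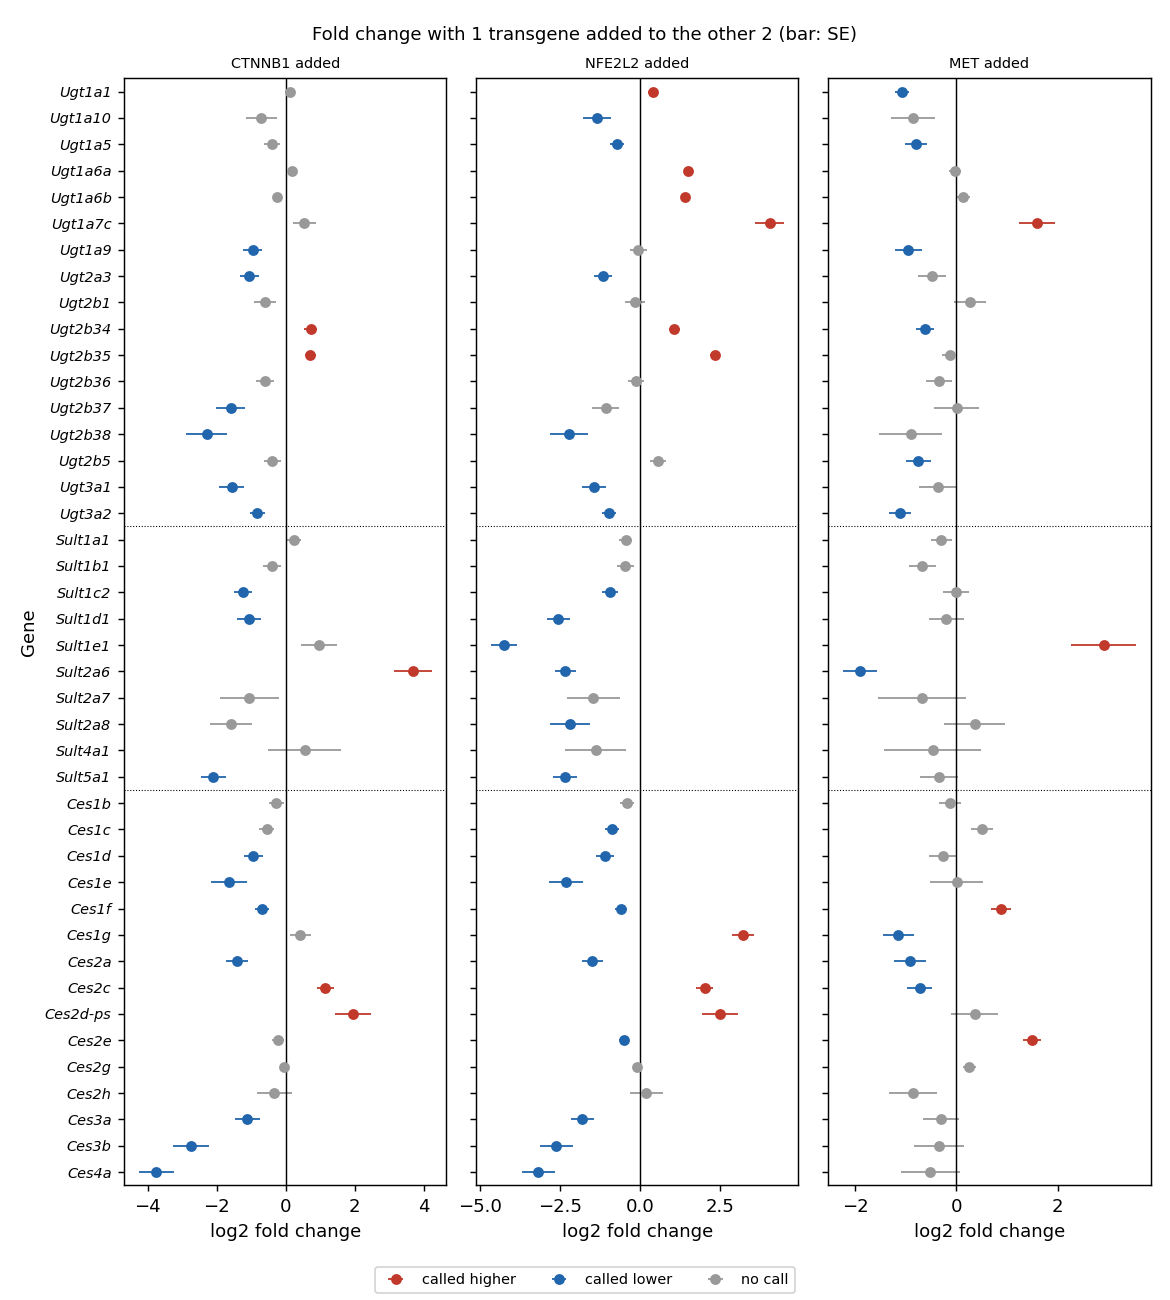
Log2 fold change (x axis) of each gene (rows) when 1 transgene was added to the other pair, with the standard error as a bar and colour for the call. With NFE2L2 added, 21 of 42 genes are called lower and 9 higher (50% and 21.4%), where 15.4% and 18.4% of all tested genes were. Sult1e1 has the largest fall among the rows shown.

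Among the SULT genes, Sult2a8 fell in the models that carried CTNNB1 with NFE2L2. Sult2a6 rose in the 3 models that carried CTNNB1, and Sult2a6 and Sult1e1 had their highest mean levels in CTNNB1_MET livers. Sult2a8, which in mice sulfates bile acids, had 18.0, 98.2 and 128 CPM in triple livers, 349.8, 399 and 352 CPM in CTNNB1_MET livers, 80.2, 20.5 and 88.9 CPM in CTNNB1_NFE2L2 livers and 309, 197 and 226 CPM in NFE2L2_MET livers, against 682, 546 and 719.7 CPM in WT livers. All 12 model libraries lay below the WT libraries, and the triple and CTNNB1_NFE2L2 libraries lay below the CTNNB1_MET and NFE2L2_MET libraries. It fell, with log2 fold changes of -2.99 ± 0.64 (adjusted p = 0.00231) in triple and -3.36 ± 0.66 (adjusted p = 0.00131) in CTNNB1_NFE2L2 livers against WT, and of -2.17 ± 0.62 (adjusted p = 0.0191) with NFE2L2 added. In CTNNB1_MET and NFE2L2_MET livers the differences from WT, -0.82 ± 0.60 (adjusted p = 0.39) and -1.41 ± 0.61 (adjusted p = 0.117), did not pass the test.

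Sult2a6, whose start is printed above, had the opposite direction in CTNNB1 models. It had 1.79, 1.83 and 1.26 CPM in triple livers, 12.1, 6.02 and 6.47 CPM in CTNNB1_MET livers, 6.67, 5.64 and 6.06 CPM in CTNNB1_NFE2L2 livers and 0.236, 0 and 0.115 CPM in NFE2L2_MET livers, against 0, 0 and 0 CPM in WT livers. The 3 WT libraries held 0 counts, and 3 counts over the group, the limit that 0 allows, correspond to 0.0647 CPM. On that limit it was at least 25.2-fold higher in triple livers (99 counts), at least 127-fold higher in CTNNB1_MET livers (406 counts) and at least 94.6-fold higher in CTNNB1_NFE2L2 livers (355 counts), and each was called. NFE2L2_MET livers held 6 counts and were not called. It rose with CTNNB1 added (log2 fold change 3.67 ± 0.55, adjusted p = 0.00026) and was lower with NFE2L2 added (-2.33 ± 0.33, adjusted p = 0.000168) and with MET added (-1.91 ± 0.33, adjusted p = 0.00131). Without NFE2L2_MET replicate 1 the first of these was 4.58. Sult2a7, which held at most 35 counts in a library, averaged 1.21 CPM in WT livers. Its model means were 0.178 CPM in triple, 0.509 CPM in CTNNB1_MET, 0.291 CPM in CTNNB1_NFE2L2 and 0.379 CPM in NFE2L2_MET livers. The WT livers thus carried it over the 0.5 CPM limit, so its lower calls against WT only describe that level. It fell in triple livers (-2.72 ± 0.76, adjusted p = 0.00793) and CTNNB1_NFE2L2 livers (-2.04 ± 0.72, adjusted p = 0.0283) against WT. These calls ended without WT replicate 2 (-2.07, adjusted p = 0.0531) in triple livers and without CTNNB1_NFE2L2 replicate 2, or WT replicate 2 (-1.38 to -1.47, adjusted p up to 0.17) in CTNNB1_NFE2L2 livers, where the value was -2.64 without CTNNB1_NFE2L2 replicate 1.

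Sult1e1, the estrogen sulfotransferase, was highest in CTNNB1_MET livers. It had 1.59, 0.769 and 2.09 CPM in triple livers, 28.3, 40.0 and 16.0 CPM in CTNNB1_MET livers, 0.145, 0.157 and 0.278 CPM in CTNNB1_NFE2L2 livers and 0.530, 1.20 and 0.573 CPM in NFE2L2_MET livers, against 0, 0.0593 and 0.257 CPM in WT livers. The WT libraries held 0, 1 and 4 counts. Each CTNNB1_MET library exceeded every library of the other groups. It fell with NFE2L2 added (log2 fold change -4.24 ± 0.41, adjusted p = 5.17e-06) and rose with MET added (2.91 ± 0.64, adjusted p = 0.00467). Against WT it rose, with log2 fold changes of 7.93 ± 0.60 (adjusted p = 9.27e-07) in CTNNB1_MET, 3.70 ± 0.76 (adjusted p = 0.001) in triple and 2.73 ± 0.86 (adjusted p = 0.0345) in NFE2L2_MET livers. The last call ended without NFE2L2_MET replicate 2 or 3, or WT replicate 1 or 2 (2.24 to 2.90, adjusted p up to 0.117), and because WT held so few counts these changes rest on a few WT counts. They were 9.47 in CTNNB1_MET, 5.24 in triple and 4.27 in NFE2L2_MET livers without WT replicate 3. Without the 3 libraries whose file names carry the word ADDED, the change with NFE2L2 added was -4.85.

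Sult1d1, which in mice acts on catecholamines, was also highest in CTNNB1_MET livers, and it moved in opposite directions against WT in 2 models. It had 20.2, 28.2 and 41.6 CPM in triple livers, 200.4, 200.2 and 128 CPM in CTNNB1_MET livers, 19.1, 37.5 and 47.1 CPM in CTNNB1_NFE2L2 livers and 62.5, 73.2 and 53.1 CPM in NFE2L2_MET livers, against 62.3, 44.2 and 79.4 CPM in WT livers. The CTNNB1_MET libraries lay above those of every other group. It rose in CTNNB1_MET livers (1.51 ± 0.34, adjusted p = 0.0104) and fell in triple livers (-1.04 ± 0.34, adjusted p = 0.0237), a call that ended without triple replicate 1 or 2, or WT replicate 1 or 3 (-0.82 to -1.04, adjusted p up to 0.0968). It fell with NFE2L2 added (-2.55 ± 0.36, adjusted p = 0.000187) and was lower with CTNNB1 added (-1.07 ± 0.34), a call that ended without triple replicate 1 or 2, or NFE2L2_MET replicate 1 or 2 (-0.85 to -1.07, adjusted p up to 0.131). Sult1a1, the main phenol sulfotransferase of liver, had 376, 311 and 301 CPM in triple livers, 421, 493 and 428 CPM in CTNNB1_MET livers, 358, 390.2 and 465 CPM in CTNNB1_NFE2L2 livers and 237, 330.4 and 274 CPM in NFE2L2_MET livers, against 255, 134 and 256 CPM in WT livers. The CTNNB1_MET, CTNNB1_NFE2L2 and triple libraries lay above all WT libraries. It rose in CTNNB1_MET (1.06 ± 0.21, adjusted p = 0.00301) and CTNNB1_NFE2L2 livers (0.91 ± 0.21, adjusted p = 0.00214) against WT. WT replicate 2 was its lowest library. Its rise in triple livers (0.61 ± 0.21) ended without triple replicate 1, or WT replicate 2 (0.37 to 0.51, adjusted p up to 0.0854).

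Sult5a1, for which no substrate is established, fell in every model. It had 2.36, 4.95 and 6.62 CPM in triple livers, 22.5, 26.4 and 22.0 CPM in CTNNB1_MET livers, 6.81, 3.19 and 7.73 CPM in CTNNB1_NFE2L2 livers and 19.6, 22.1 and 18.4 CPM in NFE2L2_MET livers, against 77.2, 45.3 and 40.3 CPM in WT livers. The lowest WT library lay above the highest model library. It fell against WT, with log2 fold changes of -3.54 ± 0.37 in triple, -1.20 ± 0.33 in CTNNB1_MET, -3.20 ± 0.36 in CTNNB1_NFE2L2 and -1.44 ± 0.33 in NFE2L2_MET livers. It also fell with NFE2L2 added (-2.34 ± 0.36, adjusted p = 0.000362) and with CTNNB1 added (-2.10 ± 0.36, adjusted p = 0.000898). The CTNNB1_MET call ended without CTNNB1_MET replicate 1, 2 or 3, or WT replicate 1 (-0.86 to -1.28, adjusted p up to 0.0971). Sult1b1, the thyroid hormone sulfotransferase, had 7.99, 15.6 and 18.6 CPM in triple livers, 19.7, 20.2 and 18.2 CPM in CTNNB1_MET livers, 17.6, 19.8 and 30.0 CPM in CTNNB1_NFE2L2 livers and 18.3, 18.1 and 18.8 CPM in NFE2L2_MET livers, against 21.6, 15.5 and 24.1 CPM in WT livers, with overlapping groups and no call. Sult4a1, at most 63 counts in a library, had no call either. Sult1c2 fell with CTNNB1 added (-1.24 ± 0.25, adjusted p = 0.00167) and with NFE2L2 added (-0.92 ± 0.25, adjusted p = 0.0109), the second call ending without CTNNB1_MET replicate 2 (-0.79, adjusted p = 0.0525). Its rise in NFE2L2_MET livers against WT (0.87 ± 0.25) ended without NFE2L2_MET replicate 1 or 3, or WT replicate 2 or 3 (0.74 to 0.83, adjusted p up to 0.0769).

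The makeup of SULT expression differed between the groups. Sult2a8 gave 16.9% ± 11.2 of the summed SULT level in triple, 34.1% ± 1.62 in CTNNB1_MET, 11.4% ± 6.33 in CTNNB1_NFE2L2 and 38.4% ± 8.40 in NFE2L2_MET livers, against 64.9% ± 3.81 in WT livers (mean ± SD, n = 3). Sult1a1 gave 71.3% ± 14.5 in triple, 41.5% ± 2.06 in CTNNB1_MET, 75.0% ± 5.19 in CTNNB1_NFE2L2 and 44.3% ± 7.51 in NFE2L2_MET livers, against 20.9% ± 3.43 in WT livers. The summed level itself was 467 ± 37.3 CPM in triple, 1079 ± 109.1 CPM in CTNNB1_MET, 541 ± 93.8 CPM in CTNNB1_NFE2L2 and 634 ± 29.8 CPM in NFE2L2_MET livers, against 1007 ± 188 CPM in WT livers. Triple, CTNNB1_NFE2L2 and NFE2L2_MET libraries all lay below the lowest WT library, and CTNNB1_MET libraries overlapped WT. With 3 libraries a group no exact permutation test can fall under 0.10, so sums are given with their spread and no test.

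**Figure D3:**
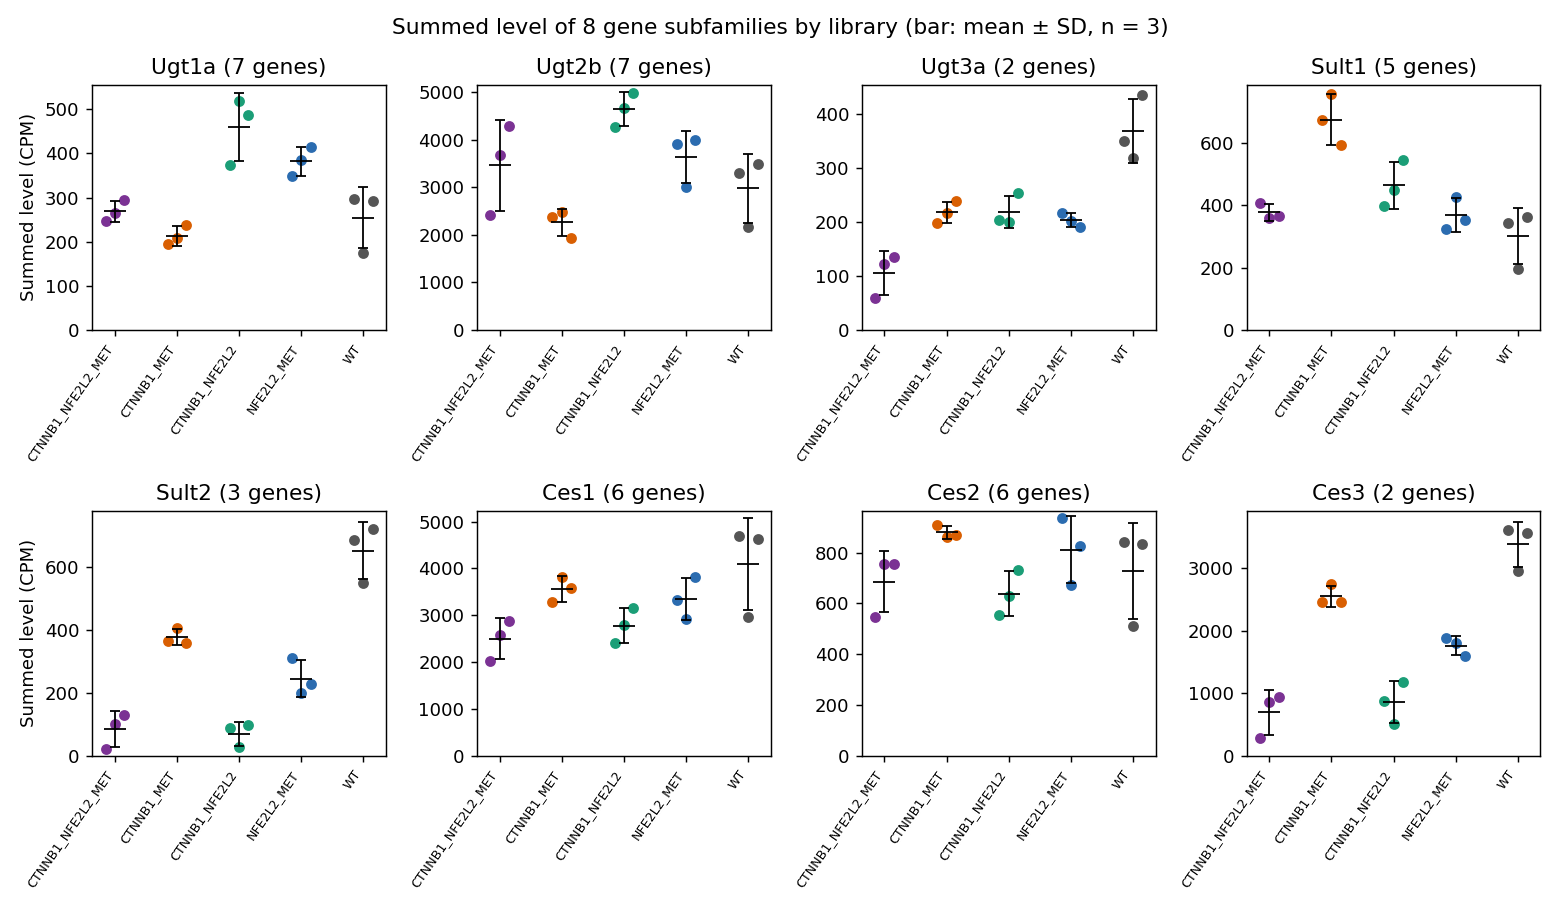
Summed level in CPM (y axis) of 8 subfamilies in each library, with the mean and SD of each group as bars (n = 3). Sult2 and Ces3 sums are lowest in triple and CTNNB1_NFE2L2 livers, and the highest Ugt1a and Ugt2b means are in CTNNB1_NFE2L2 livers.

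The CES genes moved in both directions within subfamilies. Within Ces1, Ces1g rose where NFE2L2 was present, and Ces1e, Ces1f and Ces1c fell in triple and CTNNB1_NFE2L2 livers. Ces1g, a hydrolase of triglycerides and cholesteryl esters, had 509, 505 and 605 CPM in triple livers, 48.1, 65.6 and 59.9 CPM in CTNNB1_MET livers, 988, 1358 and 1245 CPM in CTNNB1_NFE2L2 livers and 382, 335 and 490.3 CPM in NFE2L2_MET livers, against 146, 46.3 and 119.2 CPM in WT livers. The 9 libraries of the NFE2L2 models lay above all CTNNB1_MET and WT libraries. It rose with NFE2L2 added (log2 fold change 3.22 ± 0.33, adjusted p = 1.16e-05) and against WT, with log2 fold changes of 2.38 ± 0.32 in triple, 3.53 ± 0.34 in CTNNB1_NFE2L2 and 1.95 ± 0.32 in NFE2L2_MET livers. It was lower with MET added (-1.15 ± 0.31, adjusted p = 0.0153), a call that ended without triple replicate 1 or 2, or CTNNB1_NFE2L2 replicate 2 (-1.05 to -1.11, adjusted p up to 0.06).

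Ces1e, known as egasyn, holds β-glucuronidase in the endoplasmic reticulum. It had 9.37, 27.9 and 53.6 CPM in triple livers, 100.1, 168 and 185 CPM in CTNNB1_MET livers, 26.4, 24.5 and 39.9 CPM in CTNNB1_NFE2L2 livers and 111.02, 58.1 and 115.99 CPM in NFE2L2_MET livers, against 506, 279 and 477 CPM in WT livers. Every model library lay below every WT library. It fell against WT, with log2 fold changes of -3.80 ± 0.56 (adjusted p = 0.000178) in triple, -3.80 ± 0.57 (adjusted p = 0.000201) in CTNNB1_NFE2L2 and -2.15 ± 0.52 (adjusted p = 0.0129) in NFE2L2_MET livers, the last call ending without NFE2L2_MET replicate 2 (-1.89, adjusted p = 0.0501). It fell with NFE2L2 added (-2.32 ± 0.53, adjusted p = 0.00599) and was lower with CTNNB1 added (-1.65 ± 0.52), a call that ended without triple replicate 1 or 2, or NFE2L2_MET replicate 1 or 3 (-1.22 to -1.59, adjusted p up to 0.0959). Without triple replicate 3 its changes were -3.02 with NFE2L2 added, -2.35 with CTNNB1 added and -4.49 in triple livers against WT. Its partner gene Gusb, β-glucuronidase itself, rose against WT, with log2 fold changes of 0.93 ± 0.09 (adjusted p = 6.19e-07) in triple, 0.83 ± 0.09 (adjusted p = 1.04e-05) in CTNNB1_MET, 0.64 ± 0.09 (adjusted p = 2.82e-05) in CTNNB1_NFE2L2 and 0.80 ± 0.09 (adjusted p = 1.13e-05) in NFE2L2_MET livers.

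Ces1c, the main carboxylesterase of mouse plasma, had 839.8, 1314 and 1423 CPM in triple livers, 2099, 2196 and 2292 CPM in CTNNB1_MET livers, 788, 682 and 1040.5 CPM in CTNNB1_NFE2L2 livers and 1680.1, 1693 and 1880.3 CPM in NFE2L2_MET livers, against 2644, 1609 and 2748 CPM in WT livers. Every triple and CTNNB1_NFE2L2 library lay below every WT library. It fell with NFE2L2 added (-0.88 ± 0.22, adjusted p = 0.00657). It fell, with log2 fold changes of -0.97 ± 0.22 (adjusted p = 0.00202) in triple and -1.48 ± 0.23 (adjusted p = 7.62e-05) in CTNNB1_NFE2L2 livers against WT. Ces1d, the triacylglycerol hydrolase of very-low-density lipoprotein assembly, fell with NFE2L2 added (-1.09 ± 0.27, adjusted p = 0.00708). Its fall in triple livers against WT (-0.93 ± 0.27) ended without triple replicate 1 (-0.83, adjusted p = 0.051), and that with CTNNB1 added (-0.94 ± 0.27) ended without triple replicate 1 or 2, or NFE2L2_MET replicate 1 or 3 (-0.71 to -0.94, adjusted p up to 0.0769). Ces1f was lower than in WT in triple (-1.35 ± 0.20, adjusted p = 6.18e-05) and CTNNB1_NFE2L2 livers (-2.23 ± 0.21, adjusted p = 6.67e-07), and its calls in CTNNB1_MET livers (-0.76 ± 0.20) ended without CTNNB1_MET replicate 1, or WT replicate 1 (-0.66 to -0.68, adjusted p up to 0.0804), and in NFE2L2_MET livers (-0.65 ± 0.20) without NFE2L2_MET replicate 2, or WT replicate 1 or 3 (-0.41 to -0.63, adjusted p up to 0.1). With CTNNB1 added (-0.70 ± 0.20) its call ended without triple replicate 1 or 2, or NFE2L2_MET replicate 1 or 3 (-0.55 to -0.67, adjusted p up to 0.0744), and with NFE2L2 added (-0.59 ± 0.20) without triple replicate 1 or 2, or CTNNB1_MET replicate 2 or 3 (-0.51 to -0.60, adjusted p up to 0.112). With MET added it rose (0.88 ± 0.20, adjusted p = 0.00525). Ces1b had 310.1, 371 and 370.2 CPM in triple livers, 402, 538 and 445 CPM in CTNNB1_MET livers, 335, 371 and 441 CPM in CTNNB1_NFE2L2 livers and 367, 410.4 and 496 CPM in NFE2L2_MET livers, against 484, 233 and 427 CPM in WT livers, with overlapping groups and no call.

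Ces2a and Ces2c, clustered copies on chromosome 8 whose starts are printed above, moved in opposite directions in every model against WT. Both encode hydrolases of the kind that splits drug esters and acylglycerols. Ces2c had 139, 164 and 166 CPM in triple livers, 43.3, 36.1 and 36.5 CPM in CTNNB1_MET livers, 235, 259.6 and 282 CPM in CTNNB1_NFE2L2 livers and 86.0, 48.0 and 77.1 CPM in NFE2L2_MET livers, against 19.8, 7.89 and 12.6 CPM in WT livers. All 12 model libraries lay above the WT libraries. It rose against WT, with log2 fold changes of 3.55 ± 0.28 in triple, 1.53 ± 0.27 in CTNNB1_MET, 4.27 ± 0.29 in CTNNB1_NFE2L2 and 2.40 ± 0.27 in NFE2L2_MET livers. It also rose with NFE2L2 added (2.02 ± 0.26, adjusted p = 7.62e-05) and with CTNNB1 added (1.15 ± 0.25, adjusted p = 0.00396). It was lower with MET added (-0.73 ± 0.25), a call that ended without triple replicate 1, 2 or 3, or CTNNB1_NFE2L2 replicate 1, 2 or 3 (-0.65 to -0.79, adjusted p up to 0.155). Of the 50-base stretches of Ces2c, 32.7% also occur in the pseudogene Ces2d-ps, which had at most 42 counts in a library.

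Ces2a had 57.3, 107.98 and 116.1 CPM in triple livers, 182, 309 and 297 CPM in CTNNB1_MET livers, 141, 174 and 219 CPM in CTNNB1_NFE2L2 livers and 320.1, 189 and 237 CPM in NFE2L2_MET livers, against 680.4, 379.9 and 683 CPM in WT livers. All 12 model libraries lay below the WT libraries. It fell against WT, with log2 fold changes of -2.63 ± 0.33 in triple, -1.14 ± 0.32 in CTNNB1_MET, -1.71 ± 0.32 in CTNNB1_NFE2L2 and -1.22 ± 0.32 in NFE2L2_MET livers. The CTNNB1_MET call ended without CTNNB1_MET replicate 1, or WT replicate 1 or 3 (-0.94 to -1.02, adjusted p up to 0.107), and the NFE2L2_MET call without NFE2L2_MET replicate 2 or 3, or WT replicate 1 (-1.06 to -1.19, adjusted p up to 0.0599). It also fell with NFE2L2 added (-1.49 ± 0.32, adjusted p = 0.00321) and with CTNNB1 added (-1.41 ± 0.32, adjusted p = 0.00503). Its lower level with MET added (-0.92 ± 0.32) ended without triple replicate 1, 2 or 3, or CTNNB1_NFE2L2 replicate 2 or 3 (-0.67 to -1.11, adjusted p up to 0.169).

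Ces2e rose in the models that carried MET, and Ces2g rose in every model. Ces2e had 268, 376 and 375 CPM in triple livers, 564, 428 and 444 CPM in CTNNB1_MET livers, 105.2, 108.8 and 148 CPM in CTNNB1_NFE2L2 livers and 438, 348 and 400 CPM in NFE2L2_MET livers, against 106.5, 90.3 and 106.98 CPM in WT livers. Every library of a MET model lay above every CTNNB1_NFE2L2 and WT library. It rose against WT, with log2 fold changes of 1.75 ± 0.17 in triple, 2.24 ± 0.17 in CTNNB1_MET and 1.96 ± 0.17 in NFE2L2_MET livers, and it rose with MET added (log2 fold change 1.49 ± 0.17, adjusted p = 3.59e-05). With NFE2L2 added it was lower (-0.50 ± 0.17), a call that ended without triple replicate 1, or CTNNB1_MET replicate 1 (-0.35 to -0.36, adjusted p up to 0.14). In CTNNB1_NFE2L2 livers, which lack MET, the difference from WT was 0.25 ± 0.17 (adjusted p = 0.232). Ces2g had 81.8, 104.8 and 93.4 CPM in triple livers, 118.4, 86.9 and 92.3 CPM in CTNNB1_MET livers, 69.6, 84.3 and 80.3 CPM in CTNNB1_NFE2L2 livers and 90.9, 87.1 and 109.00 CPM in NFE2L2_MET livers, against 33.5, 31.03 and 31.2 CPM in WT livers. Every model library lay above every WT library. It rose against WT in all the models, with log2 fold changes of 1.55 ± 0.13 in triple, 1.64 ± 0.14 in CTNNB1_MET, 1.29 ± 0.13 in CTNNB1_NFE2L2 and 1.58 ± 0.13 in NFE2L2_MET livers, and none of the added-transgene comparisons called it. Ces2h, at most 21 counts in a library, was higher in CTNNB1_NFE2L2 livers (1.38 ± 0.52), a call that ended without CTNNB1_NFE2L2 replicate 2 or 3, or WT replicate 1 or 3 (0.99 to 1.40, adjusted p up to 0.145) and stood at 2.20 without WT replicate 2. Ces2d-ps also rose with NFE2L2 added (2.49 ± 0.56, adjusted p = 0.00309) and with CTNNB1 added (1.96 ± 0.53, adjusted p = 0.0108). On 1 strand alone, the calls ended for NFE2L2 (1.75, adjusted p = 0.0544) and for CTNNB1 (1.66, adjusted p = 0.0677), and without the 3 libraries whose file names carry the word ADDED the NFE2L2 value was 1.86. Of its 50-base stretches, 76.9% occur elsewhere, so its counts rest on the few that do not. It was higher in triple livers against WT (1.37 ± 0.51), a call that ended without triple replicate 2 or 3, or WT replicate 2 or 3 (0.93 to 1.39, adjusted p up to 0.13) and stood at 2.15 without WT replicate 1.

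The Ces3 pair and Ces4a fell in the models that combined CTNNB1 with NFE2L2. Ces3a and Ces3b encode liver hydrolases and share 25.6% of the 50-base stretches of Ces3a. Ces3b had 24.0, 56.2 and 95.9 CPM in triple livers, 317, 379 and 377 CPM in CTNNB1_MET livers, 76.7, 27.3 and 119.9 CPM in CTNNB1_NFE2L2 livers and 511, 326 and 335 CPM in NFE2L2_MET livers, against 779.8, 777 and 668 CPM in WT livers. Triple and CTNNB1_NFE2L2 libraries lay below those of every other group, and all models lay below WT. It fell, with log2 fold changes of -3.66 ± 0.55 (adjusted p = 0.000162) in triple and -3.31 ± 0.54 (adjusted p = 0.000338) in CTNNB1_NFE2L2 livers against WT. It also fell with NFE2L2 added (-2.61 ± 0.52, adjusted p = 0.00248) and with CTNNB1 added (-2.73 ± 0.53, adjusted p = 0.00213). The triple value against WT was -4.28 without the 3 libraries marked ADDED. Ces3a had 258, 807 and 836 CPM in triple livers, 2137, 2367 and 2081 CPM in CTNNB1_MET livers, 795, 482 and 1065 CPM in CTNNB1_NFE2L2 livers and 1377, 1477 and 1260.2 CPM in NFE2L2_MET livers, against 2841, 2185 and 2899 CPM in WT livers. Triple and CTNNB1_NFE2L2 libraries again lay below all others. It fell, with log2 fold changes of -2.06 ± 0.37 (adjusted p = 0.000378) in triple and -1.76 ± 0.36 (adjusted p = 0.00127) in CTNNB1_NFE2L2 livers against WT. It also fell with NFE2L2 added (-1.79 ± 0.36, adjusted p = 0.00195) and with CTNNB1 added (-1.11 ± 0.36), a call that ended without NFE2L2_MET replicate 1 or 2 (-1.06 to -1.11, adjusted p up to 0.0813). Ces4a had 0.512, 0.769 and 0.876 CPM in triple livers, 8.64, 7.16 and 3.92 CPM in CTNNB1_MET livers, 1.35, 0.470 and 1.28 CPM in CTNNB1_NFE2L2 livers and 4.13, 14.8 and 10.5 CPM in NFE2L2_MET livers, against 6.40, 9.85 and 9.62 CPM in WT livers. Its triple and CTNNB1_NFE2L2 libraries also lay below all others. It fell in the same comparisons, with log2 fold changes of -3.57 ± 0.51 in triple and -3.05 ± 0.49 in CTNNB1_NFE2L2 livers against WT, -3.17 ± 0.51 (adjusted p = 0.000356) with NFE2L2 added and -3.75 ± 0.50 (adjusted p = 0.000103) with CTNNB1 added. In CTNNB1_MET and NFE2L2_MET livers none of these 3 genes passed the test against WT. CTNNB1_NFE2L2 livers also had the lowest hepatocyte marker sum, as given above, whose part in these results was not tested.

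**Figure D4:**
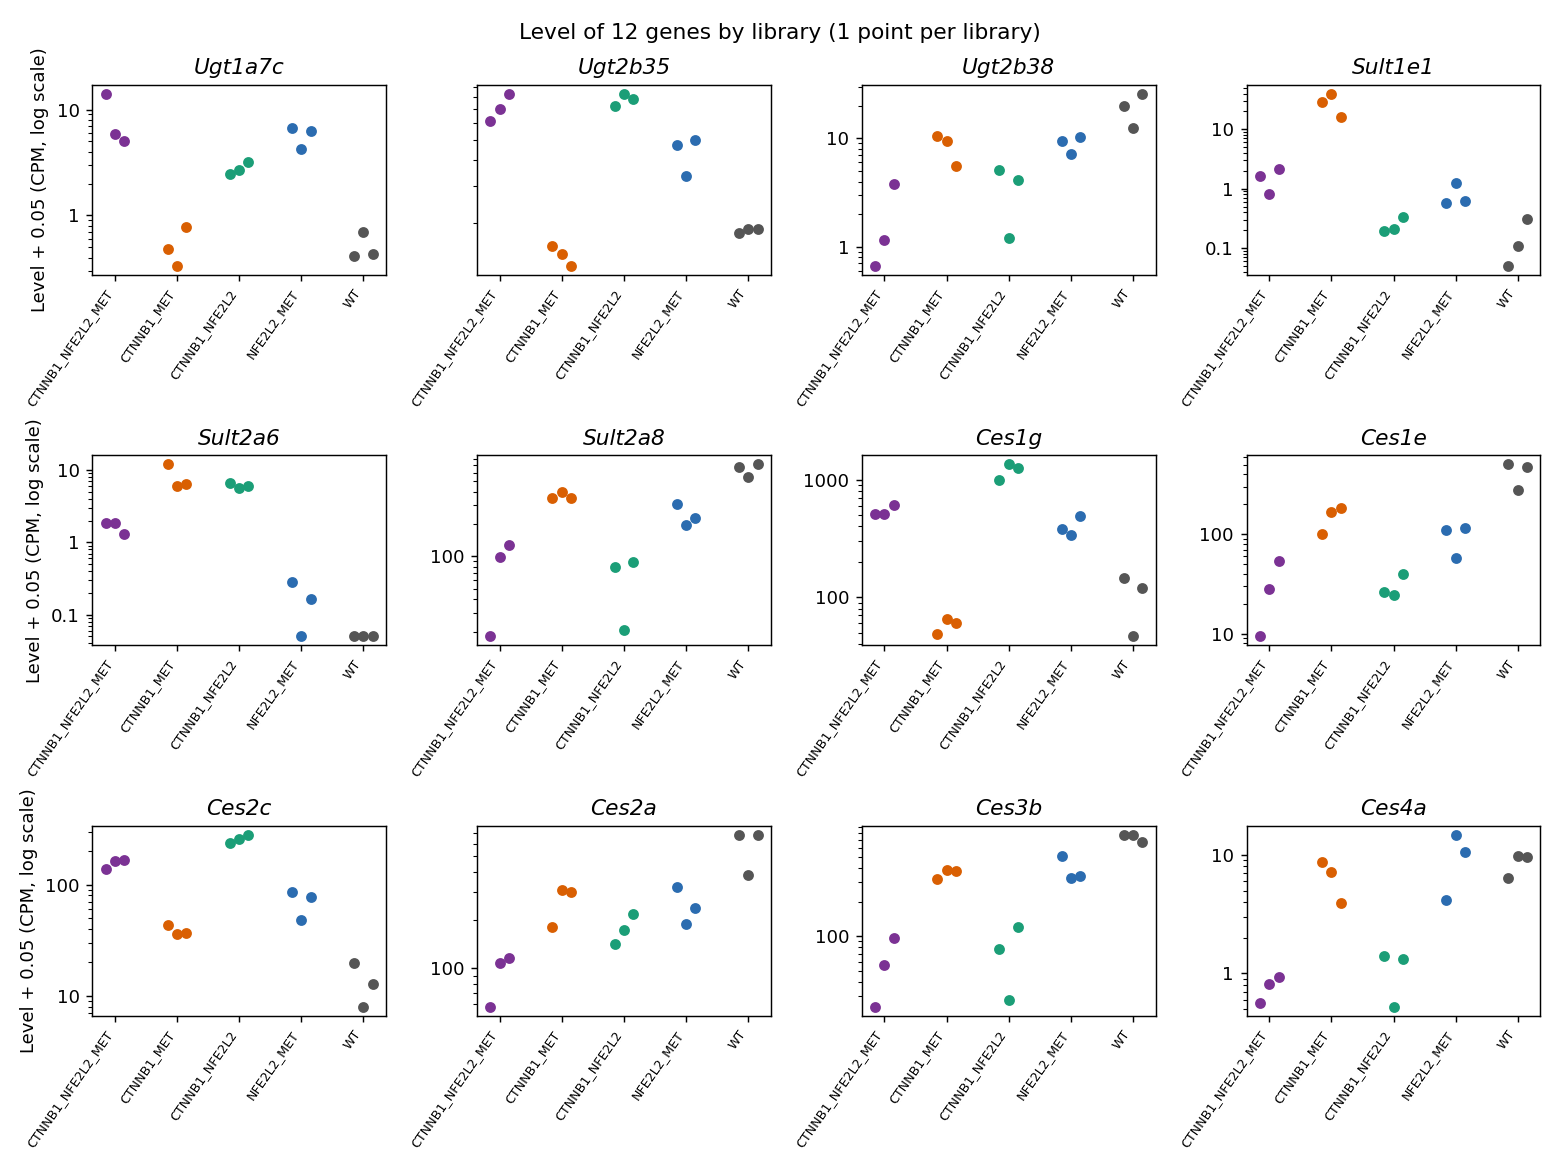
Level + 0.05 in CPM on a log axis (y) of 12 genes in each of the 15 libraries, 1 point per library. Ces2c and Ces2a separate from WT in opposite directions in all 4 models, and Ces3b and Sult2a8 are lowest in triple and CTNNB1_NFE2L2 livers.

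As a family, CES expression summed to 3874 ± 906 CPM in triple, 6999.6 ± 404 CPM in CTNNB1_MET, 4270.1 ± 692 CPM in CTNNB1_NFE2L2 and 5933 ± 460 CPM in NFE2L2_MET livers, against 8219 ± 1535 CPM in WT livers (SD, n = 3). Every triple, CTNNB1_NFE2L2 and NFE2L2_MET library lay below the lowest WT library. Ces1g gave 28.3% ± 5.47 of that sum in CTNNB1_NFE2L2 livers and 1.21% ± 0.450 in WT livers, and Ces3a gave 18.0% ± 4.98 in CTNNB1_NFE2L2 livers and 32.3% ± 1.46 in WT livers. Per kilobase of exon, Ces1g led the family in CTNNB1_NFE2L2 livers at 501 ± 79.3 CPM, next to Ces1c at 458 ± 100.8 CPM, values within their spread of each other. In WT livers Ces3a at 1291 ± 194 CPM and Ces1c at 1277 ± 345 CPM led, also within their spread. The UGT sum was 3912 ± 1054 CPM in triple, 2858 ± 257 CPM in CTNNB1_MET, 5424 ± 471 CPM in CTNNB1_NFE2L2 and 4374 ± 556 CPM in NFE2L2_MET livers, against 3814 ± 873 CPM in WT livers. CTNNB1_NFE2L2 libraries lay above all WT libraries, and the other models overlapped WT.

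**Figure D5:**
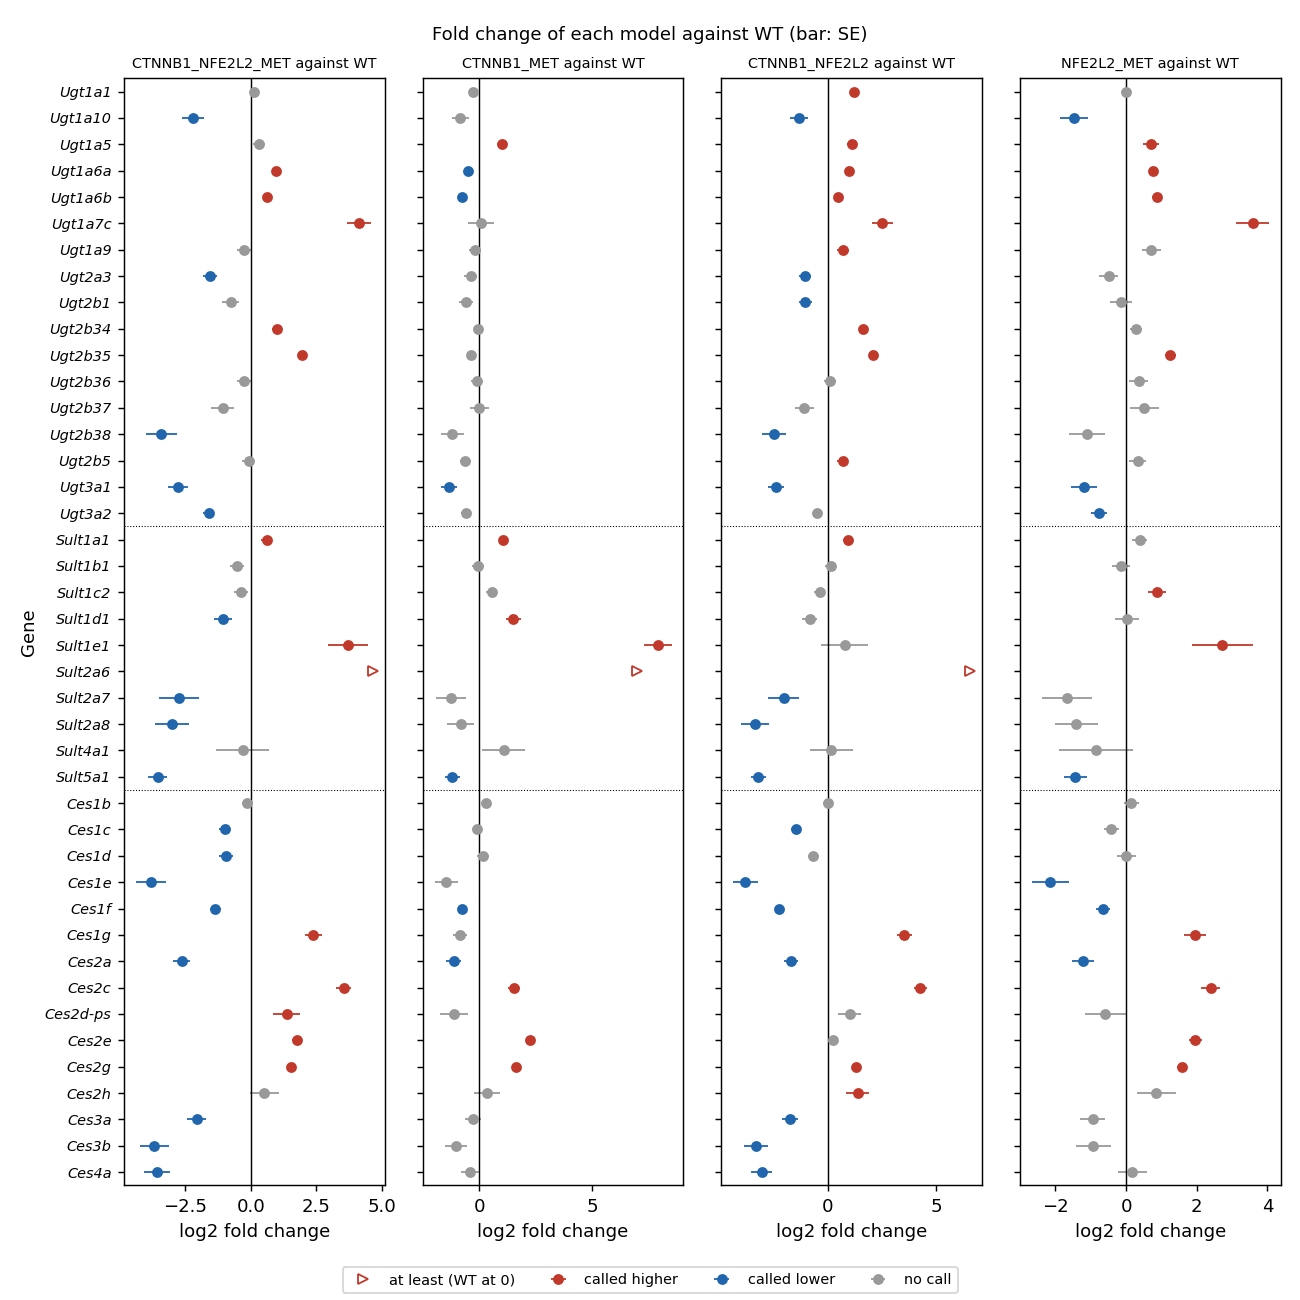
Log2 fold change (x axis) of each gene (rows) in each model against WT, with the standard error as a bar and colour for the call. Open triangles for Sult2a6 are lower bounds, as WT held 0 counts, and CTNNB1_MET has 14 called genes where CTNNB1_NFE2L2 has 30. Of all tested genes, 11.0% were called higher and 6.22% lower in CTNNB1_MET, and 24.5% and 24.2% in CTNNB1_NFE2L2.

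The genes that supply the cosubstrates were read beside the families. All 6 genes of UDP-glucuronic acid supply rose with NFE2L2 added, where 18.4% of all tested genes rose, and their median log2 fold change was 1.16. Ugdh, which makes UDP-glucuronic acid, had 1201, 1111 and 1162 CPM in triple livers, 124.5, 133 and 120.5 CPM in CTNNB1_MET livers, 1186, 1319 and 1235 CPM in CTNNB1_NFE2L2 livers and 768, 460.2 and 826 CPM in NFE2L2_MET livers, against 147, 136 and 174 CPM in WT livers. Its 9 libraries from NFE2L2 models all lay above the other 6. It rose with NFE2L2 added (log2 fold change 3.20 ± 0.19, adjusted p = 1.94e-08) and against WT in triple (2.93 ± 0.19), CTNNB1_NFE2L2 (3.03 ± 0.19) and NFE2L2_MET livers (2.17 ± 0.18). Ugp2, which makes its precursor UDP-glucose, rose with NFE2L2 added (1.60 ± 0.22, adjusted p = 8.71e-05), as did the phosphoglucomutase genes Pgm2 (0.89 ± 0.11, adjusted p = 3.9e-05) and Pgm1 (0.99 ± 0.18, adjusted p = 0.000641). Against WT, 6 of the 6 rose in triple livers, 0 in CTNNB1_MET, 5 in CTNNB1_NFE2L2 and 5 in NFE2L2_MET livers, and 0 fell in any of the 4 models. Of all tested genes, 26.5%, 11.0%, 24.5% and 13.5% were called higher in these models, in the same order.

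For the sulfate donor PAPS, 3 of 9 tested genes rose and 3 fell with NFE2L2 added (median -0.11), where 18.4% of all tested genes were called higher and 15.4% lower. In triple livers against WT 1 rose and 3 fell, where 26.5% of all genes were called higher and 23.4% lower. Papss2, a PAPS synthase, had 59.0, 77.9 and 58.0 CPM in triple livers, 154, 183 and 207 CPM in CTNNB1_MET livers, 52.3, 78.8 and 71.6 CPM in CTNNB1_NFE2L2 livers and 77.2, 46.4 and 69.0 CPM in NFE2L2_MET livers, against 186, 179 and 104.6 CPM in WT livers. All 9 libraries of the NFE2L2 models lay below the lowest WT library. It fell with NFE2L2 added (-1.48 ± 0.24, adjusted p = 0.000418) and against WT in triple (-1.27 ± 0.24), CTNNB1_NFE2L2 (-1.21 ± 0.24) and NFE2L2_MET livers (-1.29 ± 0.24). Suox, sulfite oxidase, fell in triple livers against WT (-1.32 ± 0.15, adjusted p = 4.6e-06), as did Slc26a1, a sulfate transporter (-1.01 ± 0.13, adjusted p = 1.81e-05). Bpnt1, which clears the spent donor, rose with NFE2L2 added (0.48 ± 0.10, adjusted p = 0.00177).

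Conjugates are taken apart by β-glucuronidase and by sulfatases. Of 4 genes listed for this step and tested, 0 rose and 2 fell with NFE2L2 added (18.4% and 15.4% of all tested genes). The 2 were Arsg (-0.95 ± 0.19, adjusted p = 0.00161) and Arsa (-0.40 ± 0.11, adjusted p = 0.012), both lysosomal arylsulfatases. Whether these 2 act on the products of UGT or SULT enzymes was not tested. The Arsa call ended without triple replicate 1, or CTNNB1_MET replicate 3 (-0.26 to -0.35, adjusted p up to 0.0777). Sts, the steroid sulfatase gene, was listed too but is not among the counted gene symbols. Of 14 other ester and lipid hydrolases, 3 rose and 6 fell with NFE2L2 added (median -0.70), against 18.4% and 15.4% of all tested genes. In triple livers against WT 4 rose and 6 fell, against 26.5% and 23.4% of all genes. The counts of those that rose lay near the shares of all genes. Esd, an S-formylglutathione hydrolase, rose with NFE2L2 added (1.48 ± 0.13, adjusted p = 1.53e-06). Pon2, a lactonase, rose with CTNNB1 added (0.85 ± 0.07, adjusted p = 9.37e-07). Bche, butyrylcholinesterase, was lower with NFE2L2 added (-0.74 ± 0.10, adjusted p = 7.3e-05) and was higher in NFE2L2_MET livers against WT (1.05 ± 0.10, adjusted p = 3.49e-06). Pnpla3, a lipid droplet lipase, rose in NFE2L2_MET livers against WT (3.63 ± 0.48, adjusted p = 7.21e-05), with 3.05 without NFE2L2_MET replicate 3.

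Transporters of conjugates went both ways. Of 9 genes, 4 rose and 4 fell with NFE2L2 added (18.4% and 15.4% of all tested genes), and 2 rose and 5 fell with CTNNB1 added (16.4% and 14.3% of all genes). Abcc4, an exporter of sulfated and glucuronidated bile acids and steroids, had 976, 832 and 736 CPM in triple livers, 17.6, 20.0 and 9.61 CPM in CTNNB1_MET livers, 1158, 1313 and 1056 CPM in CTNNB1_NFE2L2 livers and 174, 96.0 and 228 CPM in NFE2L2_MET livers, against 3.67, 1.42 and 4.75 CPM in WT livers. Every NFE2L2 model library lay above the other libraries, and the CTNNB1_MET libraries lay above WT. It rose with NFE2L2 added (5.76 ± 0.43, adjusted p = 9.4e-07) and with CTNNB1 added (2.35 ± 0.36, adjusted p = 0.000363). Slc22a7, an uptake carrier for organic anions, fell with NFE2L2 added (-2.81 ± 0.47, adjusted p = 0.000847) and with CTNNB1 added (-2.62 ± 0.47, adjusted p = 0.00147). Slco2b1, another uptake carrier, fell in triple livers against WT (-1.62 ± 0.18, adjusted p = 3.27e-06). Abcg2, an exporter of sulfated conjugates, was lower in CTNNB1_MET livers against WT (-1.26 ± 0.18, adjusted p = 0.00023).

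Among 21 genes of nuclear receptors and other regulators known to act on these families, 2 rose and 10 fell with NFE2L2 added (median -0.36), against 18.4% and 15.4% of all tested genes. With CTNNB1 added 2 rose and 5 fell, against 16.4% and 14.3% of all genes, and in triple livers against WT 2 rose and 12 fell, against 26.5% and 23.4%. Ahr, the dioxin receptor, rose with CTNNB1 added (2.29 ± 0.16, adjusted p = 2.13e-07) and with NFE2L2 added (1.05 ± 0.16, adjusted p = 0.000127). Ppara, the fatty acid receptor, fell with NFE2L2 added (-0.82 ± 0.15, adjusted p = 0.000577) and in CTNNB1_NFE2L2 livers against WT (-1.37 ± 0.15, adjusted p = 2.88e-06). Esr1, the estrogen receptor, fell in CTNNB1_NFE2L2 livers (-1.56 ± 0.26, adjusted p = 0.000209), and its call in triple livers (-0.72 ± 0.25) ended without triple replicate 2 or 3, or WT replicate 2 (-0.38 to -0.71, adjusted p up to 0.172). Cebpa, a liver-enriched factor, fell with NFE2L2 added (-0.97 ± 0.19, adjusted p = 0.00124) and in triple livers against WT (-1.09 ± 0.19, adjusted p = 0.000239). The change of the regulators was not set against that of the conjugation genes in a test.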

How the data were processed

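PolyA RNA of 15 livers was sequenced. The authors deposited gene counts, 1 table per library. Per the submitters' processing notes the tools were Trimmomatic and STAR with mm10, for which no version, and no annotation release, is given in the sources used here. Deposited tables hold 3 count columns, and the unstranded counts of column 2 were used because column 3 held 49.7% to 49.9% of the stranded reads. Reads that map to several genes are not in the counts, so close copies are understated. Unmapped, multimapping, featureless and ambiguous rows were left out of library sizes (8.69% to 25.9% unmapped and 1.48% to 1.96% ambiguous reads). Unmapped reads made up 8.69% to 11.2% in triple, 15.8% to 19.1% in CTNNB1_MET, 9.71% to 11.8% in CTNNB1_NFE2L2 and 12.7% to 14.2% in NFE2L2_MET livers. In WT livers they made up 19.8% to 25.9%, above every model library. The part of this difference in the comparisons against WT was not tested. Replicates of a group differed beyond sampling noise in all 15 pairs (chi-square per gene 13.2 to 108), and the WT pairs with replicate 2 gave 91.9 and 108.

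Counts were fitted in edgeR 4.0.16 (TMM scaling, filterByExpr, robust quasi-likelihood test) as 5 group means from all 15 libraries together, and p-values were Benjamini-Hochberg adjusted over 14098 genes. Errors of log2 fold changes are standard errors. CPM are TMM-scaled, and levels per kilobase use exon length not shared with another gene (Ugt1a6a left out). The fit was tested on simulated data for the comparison with NFE2L2 added. It called 66 of 100 genes changed 2-fold, 92 of 100 changed 4-fold and 11 of 13685 unchanged genes. A change near 2-fold can therefore go without a call. The settings varied were RLE scaling, testing without the filter, column 3, DESeq2 1.42.0, the libraries of a contrast alone, a term for 3 libraries whose file names carry the word ADDED, leaving these or each library out and, chosen after seeing the data, total-count scaling. Positions and shared 50-base stretches come from the GENCODE M21 annotation on GRCm38. Members and lists were chosen with earlier results of these data known. Values of all libraries are given for the 5 most abundant and the 5 most changed members of each family, with some others added after their values were seen, and at most 4 called genes of smallest p per pathway list.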

Additional observations from a re-analysis of the deposited data

Results flagged for a closer look

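The phenol UGT genes Ugt1a6a and Ugt1a6b were called in opposite directions against WT in different models, and were singled out for that. Direct differences between those models, from the same edgeR fit and the same libraries, are therefore descriptions and no further support. For Ugt1a6a the log2 difference was 1.49 in triple minus CTNNB1_MET livers, which is the comparison with NFE2L2 added given above, -1.30 in CTNNB1_MET minus NFE2L2_MET livers and -1.52 in CTNNB1_MET minus CTNNB1_NFE2L2 livers. For Ugt1a6b it was 1.42 in triple minus CTNNB1_MET livers, -1.66 in CTNNB1_MET minus NFE2L2_MET livers and -1.28 in CTNNB1_MET minus CTNNB1_NFE2L2 livers. Sult1d1, the catecholamine sulfotransferase, fell in triple and rose in CTNNB1_MET livers against WT, and triple minus CTNNB1_MET livers, again the comparison with NFE2L2 added, was -2.55. Groups of 3 libraries are too small to test for a single outlying library.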

How the results depend on the processing

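Of 157 member calls over the 7 comparisons, 108 kept their direction and stayed past the threshold in every setting other than total-count scaling, 46 ended without some 1 library, and 0 reversed in any setting. Total-count scaling ended 18 calls and added 10, and with CTNNB1 added it gave 11 members higher and 9 lower. The libraries of a contrast alone ended 14 and added 12, and gave 10 members lower in CTNNB1_MET livers against WT. Without the 3 libraries marked ADDED, 17 calls ended and 6 were added, with 3 members lower in CTNNB1_MET livers and 3 lower in NFE2L2_MET livers. DESeq2 ended 1 and added 14, RLE size factors ended 1 and added 1, no low-count filter ended 8 and added 0, column 3 ended 8 and added 2, and the ADDED term ended 5 and added 6.

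With 1 library left out, members higher and lower ranged over 5 to 5 and 10 to 18 with CTNNB1 added, 8 to 9 and 16 to 21 with NFE2L2 added, and 4 to 5 and 3 to 11 with MET added. Against WT they ranged over 11 to 13 and 16 to 19 in triple, 8 to 8 and 1 to 9 in CTNNB1_MET, 12 to 15 and 13 to 16 in CTNNB1_NFE2L2, and 8 to 10 and 2 to 7 in NFE2L2_MET livers. The cause of these changes was not tested. No paired analysis was possible because replicate numbers are absent from the labels and follow accession order here. A mean of at least 1 CPM leaves 39 members and 0.25 CPM gives 48. Depth limits low genes such as Sult1e1 and Sult2a7, and the limit of 3 counts given for Sult2a6 covers counting error only.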
